A study of Homo sapiens with 36 samples.

Results

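Chromatin carrying γH2AX was mapped by ChIP-seq in K562 cells with and without aphidicolin, and 4 of the 22 island lists deposited for the series are described here. They are the lists whose titles combine K562, a treatment letter with a replicate number, and γH2AX: aphidicolin replicates 1 and 3, and untreated replicates 1 and 3. These 4 lists hold 70056 of the 543417 islands deposited. An island is a stretch of the genome in which an enrichment caller found more reads than its threshold, and the deposited value is the number of reads in it.

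The series asks where the histone variant macroH2A1.2 and the damage mark γH2AX lie before and after replication stress. All 4 libraries came from K562, a human chronic myeloid leukaemia line, and were precipitated with the same antibody against H2AX phosphorylated at S139. The labels give the treatment as aphidicolin or untreated, with no dose and no duration for these 4 libraries. Whether replicates were separate cultures is not stated, so a p-value below speaks only of these particular libraries, whose scatter may be technical.

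H2AX is a variant of histone H2A that is spread through chromatin in all cells. Kinases that sense stalled forks and broken DNA, chiefly ATR, ATM and DNA-PK, phosphorylate its tail, and the phosphorylated form, γH2AX, spreads along the chromosome over long distances around the lesion. Aphidicolin inhibits the replicative DNA polymerases, slows forks, and at low doses provokes breaks at common fragile sites. K562 has an abnormal karyotype that includes the amplified BCR-ABL1 fusion, a product of the translocation between chromosomes 9 and 22. The libraries of input DNA were not analysed here, so no copy number stands behind the read densities below.

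After treatment, γH2AX islands lay in other places than before it. The 2 aphidicolin lists shared 52.3 Mb with each other, and the 2 untreated lists shared 32.5 Mb, whereas the 4 pairs across treatments shared 4.35 to 8.04 Mb. Chromosomes 15, 16, 17, 19, 20 and 22 held a larger part of the islands after aphidicolin, and chromosomes 4, 5 and 7 a smaller part relative to the whole list. The 2 aphidicolin lists differed 3.03-fold in length, and the shorter one also held long chromosome 13 islands that both untreated lists held and the longer one largely lacked. Total length, gained bases and window counts are therefore also given without the shorter list. The named rises, gained runs and read-dense chromosome 22 segments need both aphidicolin lists and are given only with it.

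The first comparison was of the amount of γH2AX. The islands covered 220.5 Mb in aphidicolin replicate 1 and 72.8 Mb in aphidicolin replicate 3, against 63.7 Mb in untreated replicate 1 and 85.3 Mb in untreated replicate 3. Replicate 1 of the treated cells thus lay above the other 3 lists, while replicate 3 lay between the 2 untreated ones. These lengths are 7.27%, 2.40%, 2.1% and 2.81% of the 3035 Mb spanned by chromosomes 1 to 22 and X. The mean was 147 ± 104 Mb after aphidicolin and 74.5 ± 15.3 Mb without it (SD, n = 2 each), a ratio of geometric means of 1.72. An exact two-sided permutation test gave p = 0.667, where 0.333 is the smallest value that 2 libraries against 2 allow. Without aphidicolin replicate 1 the log2 ratio fell from 0.78 to -0.018, and without aphidicolin replicate 3 it was 1.58, so no change in total length was established by these lists.

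**Figure D1:**
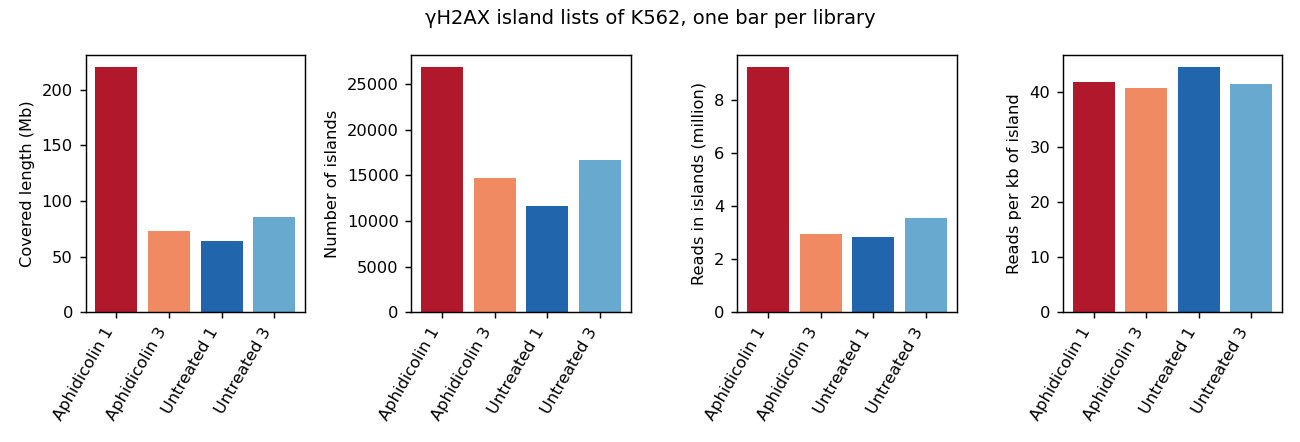
Covered length (Mb), number of islands, reads inside islands and reads per kb of island, with 1 bar for each of the 4 γH2AX libraries. Aphidicolin replicate 1 stands above the others in the first 3 panels, while reads per kb lie between 40.6 and 44.5 in all 4.

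The longer list of replicate 1 had more islands and longer ones. It held 26855 islands with a median length of 6000 bp, and replicate 3 held 14754 with a median of 3600 bp. The untreated lists held 11645 islands of median 4400 bp and 16722 of median 4000 bp. Islands of at least 10 kb made up 47.1% of the covered length in aphidicolin replicate 1, 25.6% in replicate 3, and 22.4% and 19.3% in the untreated lists. In windows of 100 kb, replicate 1 touched 7830 windows (25.8% of all) and covered 28.2% of a touched window on average. The other 3 lists touched 4713 to 6145 windows and covered 13% to 13.9% of each, so replicate 1 differed from them more in how much of a window it filled than in how many windows it reached.

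Read density did not follow list length. Reads inside islands numbered 9227009 and 2958783 in aphidicolin replicates 1 and 3, and 2835634 and 3536365 in untreated replicates 1 and 3. Per kb of island this was 41.8 and 40.6 reads after aphidicolin and 44.5 and 41.5 reads without it. The 2 aphidicolin lists therefore differed 3.12-fold in reads but 1.03-fold in reads per kb. At the thin end, 1% of the islands lay below 29.5 reads per kb in aphidicolin replicate 1 and below 26.8 to 27.1 in the other lists. How many reads were sequenced for each library is unknown here, and its part in the difference in list length was not tested.

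Position was compared next between the 2 aphidicolin lists. The 52.3 Mb that they shared was 71.8% of the short list and 23.7% of the long one. Counted as islands, 11200 of the 14754 islands of replicate 3 (75.9%) touched an island of replicate 1, and 70.7% had at least 50% of their length inside one. In the other direction 8946 of the 26855 islands of replicate 1 (33.3%) touched replicate 3, and 16.7% lay inside it for at least 50% of their length. Most of the short list was thus nested in the long one, and most of the long list had no counterpart.

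The untreated pair shared 50.9% of untreated replicate 1 and 38.1% of untreated replicate 3. As a share of the bases in either list, the treated pair had 21.7% in common and the untreated pair 27.8%. Cutting each list to the 63.7 Mb of its densest islands changed these to 27.2% and 29.7%. At equal length the treated pair therefore shared nearly as much as the untreated pair.

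Across treatments the shared parts were small. The long aphidicolin list had 1.97% of its length inside untreated replicate 1 and 2.60% inside untreated replicate 3. The short list had 9.45% and 11% of its length in them, a larger part in both cases. Outside the read-dense windows described below, those 2 values of the short list were 6.65% and 8.34%, and its share inside the long list was 73.4%.

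**Figure D2:**
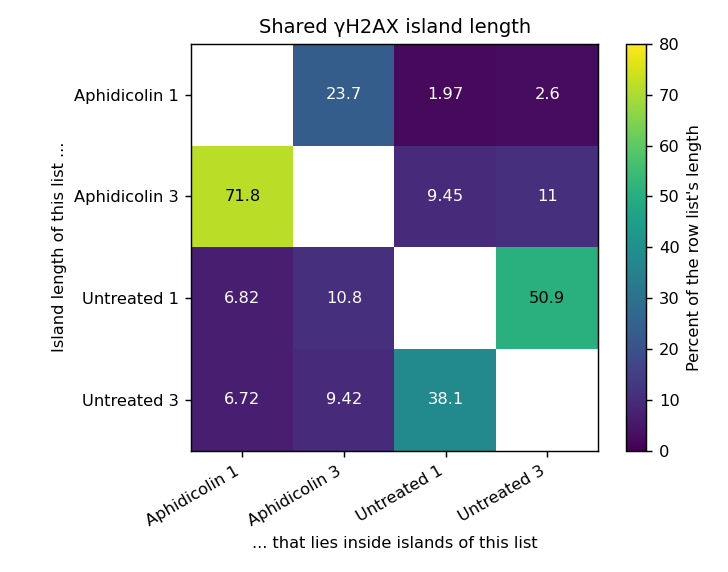
Percent of the island length of the list named at the left that lies inside islands of the list named at the bottom, for all 12 ordered pairs of the 4 γH2AX lists. Same-treatment cells range from 23.7% to 71.8%, and cells across treatments from 1.97% to 11%.

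Where an island of replicate 1 met replicate 3, it was usually the longer partner. Of the touching islands of replicate 1, 6679 met a single island of replicate 3 and 2267 met 2 or more, up to 9. In 5308 pairs each island met only the other, and there the island of replicate 1 was 1.91 times as long by the median. The larger of the 2 edge offsets had a median of 3.4 kb, and both edges lay within 1 kb in 14.2% of pairs. The 4438 such pairs of the untreated lists had a median length ratio of 1.00, a median larger offset of 2 kb, and both edges within 1 kb in 26.4%. No pair of lists shared an island with the same edges and the same number of reads, so all 4 were kept as separate libraries.

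Islands without a counterpart lay near the other aphidicolin list. The 3554 islands of replicate 3 that touched none of replicate 1 were at a median of 11.5 kb from the nearest one, and 48.1% were within 10 kb. The 17909 unmatched islands of replicate 1 were at a median of 20.4 kb from replicate 3, and 83.3% were within 100 kb. Islands that touched none of untreated replicate 1 stood at a median of 602 kb from it for aphidicolin replicate 1 and 484 kb for replicate 3. Towards untreated replicate 3 the medians of the islands unmatched there were 537 kb and 400 kb. Unmatched treated islands were thus close to the other treated list and far from both untreated ones, although each comparison has its own unmatched islands. The longer a list is, the shorter the distance to it becomes.

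Agreement rose with read density. Islands of replicate 1 were split into quartiles by reads per kb, and 6.76%, 13.2%, 22.3% and 41.8% of their length lay inside replicate 3 from the thinnest to the densest quartile. For replicate 3 inside replicate 1 the values were 50.4%, 70.4%, 83.1% and 79.7%. The order was the same in the untreated pair, from 24.9% to 76.6% for untreated replicate 1 and from 14.6% to 64.9% for untreated replicate 3. Across treatments the densest quartile of aphidicolin replicate 3 departed from its other quartiles: 17.7% of it lay inside untreated replicate 1, against 4.47% to 6.80% of the other 3. By length there was no such steady order. Of the islands of replicate 1, 31.3% of those under 2 kb touched replicate 3, 21.3% of those of 2 to 5 kb, 35.6% of those of 5 to 20 kb and 84.1% of the longer ones, and a longer island has more bases with which to touch. The length of replicate 3 inside replicate 1 was 82.1% for islands of 5 to 20 kb and 68.6% for longer ones.

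**Figure D3:**
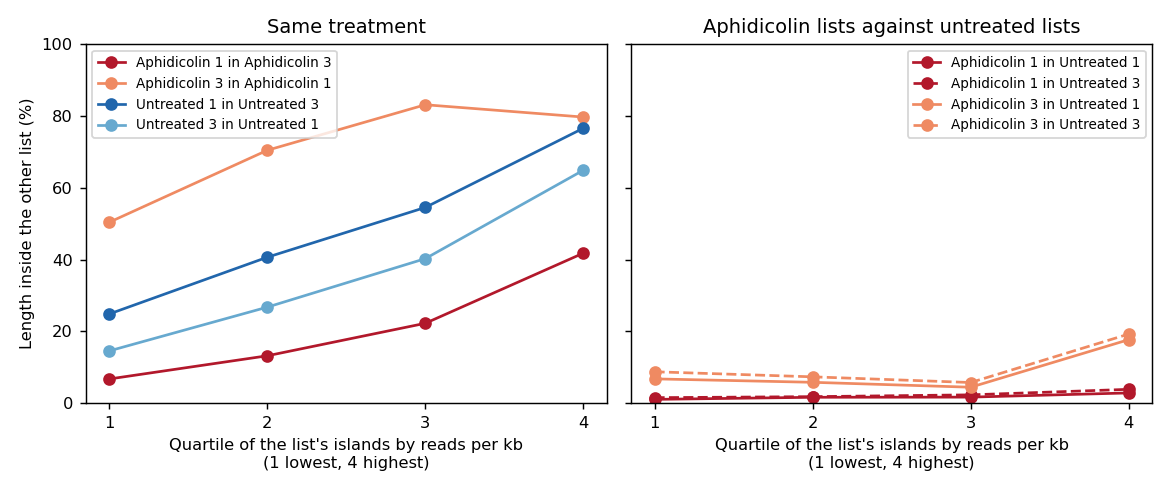
Percent of island length inside another list (vertical axis) for each quartile of a list's islands by reads per kb (horizontal axis, 1 the thinnest and 4 the densest), for same-treatment pairs at the left and for the aphidicolin lists inside the untreated lists at the right. Same-treatment sharing rises with density, apart from a last step from 83.1% to 79.7%, and sharing across treatments stays below 20%.

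Density itself was compared in windows of 100 kb in which both lists covered at least 10%. In 2156 such windows the reads per kb of the 2 aphidicolin lists, each divided by its list mean, had a Spearman rho of 0.73, and in 1480 windows of the untreated pair rho was 0.70. The percent covered had rho 0.62 over those windows for the aphidicolin pair and 0.77 for the untreated pair. In the same measure of coverage, aphidicolin replicate 1 had rho -0.01 with untreated replicate 1 over 242 windows and -0.01 with untreated replicate 3 over 327. Aphidicolin replicate 3 had 0.29 over 275 and 0.23 over 343, or 0.07 and 0.05 outside the read-dense windows. Density was also correlated across treatments, with rho from 0.44 to 0.69. These are descriptions: windows of 1 library share its depth and its genome, base composition and mappability were not modelled, and neighbouring windows can share an island.

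Where the 2 aphidicolin lists agreed on a window, they did not fill it alike. Replicate 1 covered at least 50% of 1424 windows, of which 157 (11%) were covered to that degree in replicate 3, whose median coverage of the 1424 was 21.6%. Replicate 3 covered at least 50% of 185 windows, of which the same 157 (84.9%) were so covered in replicate 1. In 25 of the 185 replicate 1 had no island at all. In the one-to-one pairs of islands, reads per kb were 1.13 times as high in replicate 1 by the median, with the middle 80% of pairs between 0.943 and 1.32 times.

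Read-dense windows set the short list apart. A window was counted as read-dense where both libraries of a treatment covered at least 50% of it at 2 times their list mean in reads per kb or more. This gave 14 segments on chromosomes 2, 5, 13, 21 and 22, of which chr22:20700001-21200000 also spans windows that did not meet the rule. The 6 segments on chromosome 22 belonged to aphidicolin: replicate 1 covered 89.7% to 100% of each and replicate 3 covered 79.2% to 100%. Both untreated lists had 0% there. The longest, chr22:22900001-23700000 in hg19, held 199 and 170 reads per kb in aphidicolin replicates 1 and 3, 4.77 and 4.19 times the list means. All 6 were again at 88.2% to 100% in the other 2 aphidicolin γH2AX libraries of K562 in the series (the first title set), and at 0% to 8.7% in the other 2 untreated ones. The part of copy number in the densities on chromosome 22 was not tested.

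The 5 segments on chromosome 13 were shared by the untreated lists and aphidicolin replicate 3. At chr13:90400001-92500000 the untreated lists covered 96.7% and 96.8% with 123 and 128 reads per kb, 2.76 and 3.10 times their means. Aphidicolin replicate 3 covered 60% of it with 83.3 reads per kb, 2.05 times its mean, and aphidicolin replicate 1 covered 0%. The same held for chr13:81100001-81500000, chr13:92900001-93300000 and chr13:93900001-94000000, where replicate 3 covered 88.5% to 100% and replicate 1 covered 0%. At chr13:108500001-108700000 replicate 1 had 41.4%. The 2 aphidicolin libraries of the first title set had 0% at all 5, and the 2 untreated libraries 70.6% to 100%, so at 4 of the 5 replicate 3 differed from the other 3 aphidicolin libraries. At the fifth, replicates 1 and 3 both covered 61.4% of chr13:108600001-108700000.

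The other 3 segments, on chromosomes 2, 5 and 21, were read-dense in the untreated lists, and aphidicolin replicate 1 had 0% at each. At chr2:92200001-92300000 the untreated lists held 9.46 and 12.1 times their mean reads per kb, and aphidicolin replicate 3 had 0% too. At chr5:49400001-49500000 and chr21:10700001-10800000 replicate 3 covered 42% and 59.6%, against 55.2% to 67.4% in the untreated lists. The part of mappability and repeats in the densities of these 3 segments was not tested.

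The macroH2A1.2 library with the same title stem as aphidicolin replicate 3 also differed there. It covered 89.5% of chr13:81100001-81500000, where the other 3 macroH2A1.2 libraries of the set covered 0% to 2.35%. At chr13:92900001-93300000 it covered 88.5% and the other 3 covered 0%, and at chr13:90400001-92500000 it covered 96.1% and the others 40.9% to 55%. At chr13:93900001-94000000 all 4 macroH2A1.2 libraries were at 0%. Whether aphidicolin replicate 3 holds material of another library, or its cells differed at these segments, was not tested. The 9.45% and 11% of its length inside the untreated lists are read with that limit.

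**Figure D4:**
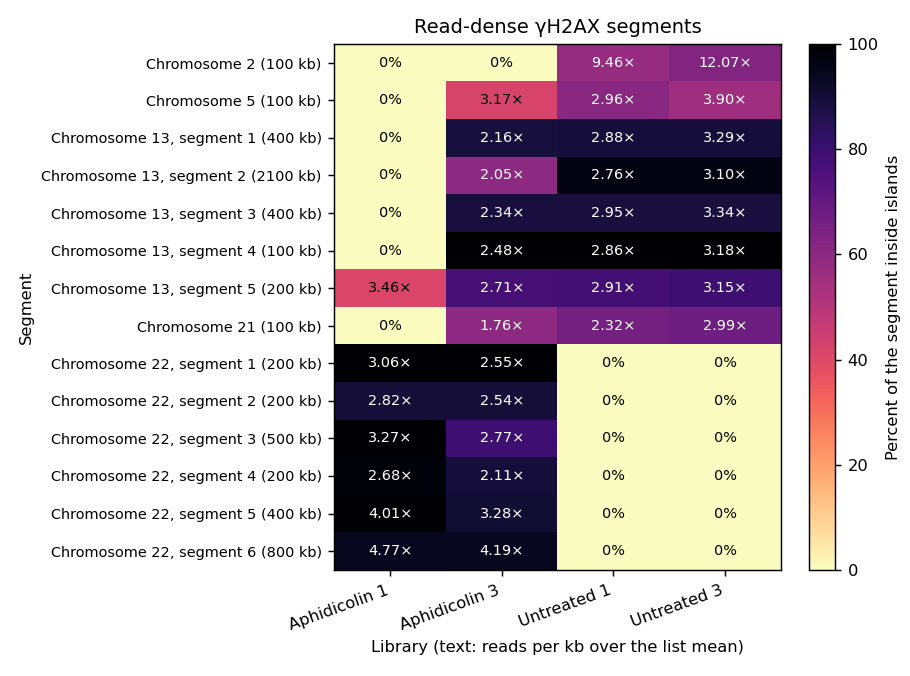
Percent of each of the 14 read-dense segments inside γH2AX islands (colour) in the 4 libraries, with the reads per kb over the list mean written in each covered cell. Chromosome 22 segments are covered in both aphidicolin lists and in neither untreated list, and chromosome 13 segments in both untreated lists and in aphidicolin replicate 3.

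The 4 lists were then laid over each other base by base. Their union was 343 Mb, of which 227 Mb lay only in aphidicolin lists, 102 Mb only in untreated lists and 14.5 Mb in lists of both treatments. Bases gained, that is inside both aphidicolin lists and neither untreated list, came to 49.2 Mb in 12195 pieces with a median of 3000 bp. Bases lost, inside both untreated lists and neither aphidicolin list, came to 26.0 Mb in 7554 pieces with a median of 2800 bp. All 4 lists had 0.912 Mb in common. With aphidicolin replicate 1 alone on the treated side the gained bases would be 212 Mb, and with replicate 3 alone 63.4 Mb. With a single untreated list the lost bases would be 54.2 or 73.9 Mb.

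The combination of aphidicolin replicate 3 with both untreated lists held 4.56 Mb, against 1.01 Mb for aphidicolin replicate 1 with both. Chromosome 13 had 49.6% of those 4.56 Mb, and it makes up 3.79% of the span. Over the whole 4.56 Mb the 3 lists had 65.4, 90.5 and 95.4 reads per kb for aphidicolin replicate 3 and untreated replicates 1 and 3. In the bases gained, aphidicolin replicates 1 and 3 had 48.0 and 40.6 reads per kb, and in those found only in replicate 1 that library had 39.8.

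Gained and lost bases were looked up in libraries that had no part in choosing them. The 2 aphidicolin γH2AX libraries of the first title set covered 53.4% and 58.6% of the gained bases, and its 2 untreated libraries 2.40% and 1.26%. The groups did not overlap, with a difference of 54.1 percentage points (exact permutation p = 0.333, n = 2 each, the smallest possible). Over the whole span those libraries covered 5.92% and 7.75% after aphidicolin and 1.93% and 2.35% without it. Of the lost bases they covered 2.76% and 2.41% after aphidicolin and 31.1% and 34.3% without it, again without overlap and with the same p. The bases of aphidicolin replicate 1 alone were at 32.3% and 38.5% after aphidicolin and at 1.61% and 0.683% without it. The bases found in the long list and in none of the other lists were therefore covered more by the aphidicolin than by the untreated libraries of the first set. Most of them still lay outside each of those aphidicolin libraries.

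MacroH2A1.2, a histone variant with a large macro domain, was read in 4 libraries with the same title stems. It covered 51.4% of the gained bases in both aphidicolin libraries and 48.5% and 43.8% in untreated replicates 1 and 3. Over the whole span it covered 10.5%, 10.1%, 9.42% and 7.96% in the same order, so each macroH2A1.2 library covered more of the gained bases than of the genome. Of the lost bases it covered 8.53%, 11%, 11% and 8.96%. The difference between treatments was 5.23 percentage points for gained bases (exact permutation p = 0.333) and -0.22 for lost bases (exact permutation p = 0.667), with n = 2 each. Over the whole span it was 1.60 percentage points, from a mean of 8.69% to 10.3% (exact permutation p = 0.333), so a higher value after aphidicolin was not particular to the gained bases.

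Chromosomes differed in how γH2AX coverage moved. Coverage of each chromosome was divided by that of the whole list, and log2 of the percent covered plus 0.1 was fitted with limma. After aphidicolin 10 of 23 chromosomes held a larger part of the islands (43.5% of those tested) and 7 a smaller part (30.4%), at Benjamini-Hochberg adjusted p of 0.05. Because these are parts of a whole, a larger part on some chromosomes brings a smaller one on others. On the absolute scale limma called 6 chromosomes higher (26.1%) and 0 lower (0%), with 7 and 0 at an unadjusted p under 0.05. Those 6, chromosomes 15, 16, 17, 19, 20 and 22, passed in all 10 settings that were run.

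Chromosome 17 moved most. Its coverage was 15.1% and 3.98% in aphidicolin replicates 1 and 3 and 0.334% and 0.355% in the untreated lists. Relative to the lists this was 2.08 and 1.66 times the mean after aphidicolin and 0.159 and 0.126 times without it, a log2 difference of 3.39 (SE 0.20, limma adjusted p = 0.00105). Chromosome 19 went from 0.428% and 0.448% to 12.4% and 3.49%, with a relative log2 difference of 2.88 (limma adjusted p = 0.00105). Chromosomes 20, 15 and 16 had relative log2 differences of 2.49, 2.1 and 2.03. With a pseudocount of 1 percentage point in place of 0.1, chromosomes 17, 19, 20, 15 and 16 had 2.11, 1.81, 1.61, 1.21 and 1.43, all still called. In each of these 5 both aphidicolin lists stood above both untreated lists, on either scale.

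Chromosome 22 also rose, and there the short list had the larger relative coverage. Its coverage was 12.1% and 6.06% after aphidicolin and 0.555% and 0.849% without it, or 1.66 and 2.53 against 0.264 and 0.302 times the list mean. The relative log2 difference was 2.69 (SE 0.24, limma adjusted p = 0.00192), and 1.70 without the read-dense windows. Reads per kb on this chromosome were 113 and 108 in the aphidicolin lists and 53.8 and 56.9 in the untreated ones. Chromosome 9, joined to chromosome 22 in the K562 translocation, rose by 1.43 on the relative log2 scale, and by 0.77 with a pseudocount of 1 percentage point. Chromosome 11 rose by 0.93, chromosome 10 by 0.71 and chromosome 1 by 0.33, and the calls for 11 and 10 were made in 5 of the 10 settings. The call for chromosome 1 had an adjusted p of 0.0428 in limma and was made in 3 of the 10 settings.

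Chromosome 7 had the highest coverage of any chromosome in both untreated lists, 8.76% and 10.8%. In the aphidicolin lists it had 11.4% and 4.62%, so the absolute values overlapped. Relative to the lists it went from 4.17 and 3.84 to 1.57 and 1.93, a log2 difference of -1.18 (SE 0.15, limma adjusted p = 0.00473). Chromosomes X, 18, 4, 5, 14 and 6 had relative log2 differences of -1.96, -1.90, -1.15, -1.09, -1.07 and -0.40. Chromosome X had little γH2AX in any list, from 0.0303% to 0.278%. Of these, chromosome 5 was called in 9 of the 10 settings, 4 and 7 in 7, and 14, 18 and X in 5. Chromosome X went to -0.87 and chromosome 14 to -0.65 with a pseudocount of 1 percentage point, where neither was called. Chromosome 6 was called in 2 settings, and on the absolute scale its difference turned in direction, to 0.36.

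Chromosome 13 divided the 2 aphidicolin lists. It was covered to 0.453% in replicate 1 and 2.16% in replicate 3, and to 2.78% in both untreated lists. Its relative log2 difference of -2.13 had an adjusted p of 0.224 in limma and was -0.24 without the read-dense windows. Without aphidicolin replicate 3 it was -3.92 with a limma adjusted p of 0.00519, and without replicate 1 it was -0.33.

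**Figure D5:**
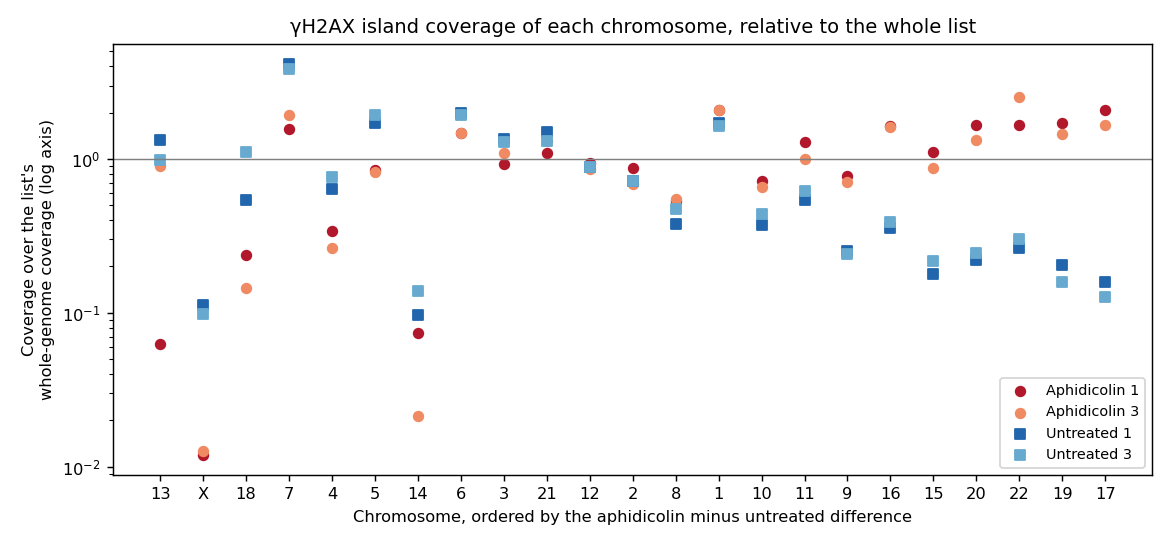
Coverage of each chromosome by γH2AX islands over that of the whole list (vertical log axis) in the 4 libraries, with chromosomes ordered by the aphidicolin minus untreated difference. Chromosomes 15, 16, 17, 19, 20 and 22 lie below the list mean in both untreated lists and, apart from replicate 3 on chromosome 15, above it in both aphidicolin lists, and chromosome 13 separates aphidicolin replicate 1 from the other 3.

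The order of chromosomes by coverage was nearly the same within a treatment and not between treatments. Spearman rho over the 23 chromosomes was 0.89 for the aphidicolin pair and 0.98 for the untreated pair, and 0.03 to 0.26 for the 4 pairs across treatments. Coverage had rho 0.80 and 0.64 with the number of protein-coding genes per Mb in the aphidicolin lists, and -0.36 and -0.39 in the untreated lists. Gene numbers were counted from RefSeq on GRCh38.p14 and lengths come from the hg19 islands. The 23 points share libraries, and gene-rich chromosomes also share base composition and size, so these are descriptions.

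The last test asked which windows of 100 kb changed. Limma was run on the percent covered in the 8322 windows that at least 2 libraries touched. After aphidicolin 77 windows were higher (0.925% of those tested) and 327 lower (3.93%) at a Benjamini-Hochberg adjusted p of 0.05. At an unadjusted p under 0.05 there were 956 and 1415. Higher calls were thus the minority on the percent scale, but edgeR on island reads called 3767 higher (45.3%) and 2483 lower (29.8%). DESeq2 called 45.8% and 30.6%, and limma on an arcsine scale 1532 and 2144 windows, so the lower majority held on both scales of coverage and turned with island reads as the measure. It also turned without aphidicolin replicate 3, where limma called 653 and 472, and without any 1 of the other 3 libraries it called 0 and 0, with 261 to 319 and 117 to 894 at an unadjusted p under 0.05.

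Separation of the lists, with no test, was far more common. Both aphidicolin lists lay above both untreated ones in 4368 of the tested windows (52.5%), and below both in 3000 (36%). Most of these windows were touched by the 2 lists of a treatment alone, 3671 by the aphidicolin pair and 2451 by the untreated pair. Such a window can pass the filter of 2 libraries only as a separated one, so its separation was fixed in advance. In the 574 windows touched by all 4 lists, 230 were separated upwards, 105 downwards, and 239 overlapped. Across the 4368 the median coverage was 34.2% in aphidicolin replicate 1 and 9.4% in replicate 3, a wide gap between replicates.

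The 77 higher windows were well filled in both aphidicolin lists. Their median coverage was 81.8% and 68.4% in aphidicolin replicates 1 and 3, and 0% in both untreated lists, with 65 at 0 in both. Those 65 met the filter of 2 libraries through the aphidicolin lists alone. Likewise 226 of the 327 lower windows met it through the untreated lists alone. In the first title set 70 of the 77 were separated in the same direction, as were 45.9% of all 8322 tested windows. The 327 lower windows had medians of 42.2% and 43.2% in the untreated lists and 0% in both aphidicolin lists, and 255 of them were separated in the same direction in the first set, as were 19.1% of all tested windows. All 77 and all 327 were already separated in these lists, whereas the 8322 include windows that were not. The shares over all tested windows are therefore no like-for-like background. Chromosome 22 held 22 of the higher windows, 30.1% of its 73 tested, and chromosome 7 held 119 of the lower ones, 14.8% of its 806 tested.

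All 15 windows with the largest rise were on chromosome 22. They form the runs chr22:19500001-19700000, chr22:20200001-20300000, chr22:20700001-20800000, chr22:21000001-21200000, chr22:22300001-22600000 and chr22:23000001-23600000. Each was at 0% in both untreated lists and between 98.4% and 100% in both aphidicolin lists (limma adjusted p = 0.00701). All 15 thus met the filter of 2 libraries through the aphidicolin lists alone. The ranking used the same difference, so this p-value is no separate support for the rise. Where all libraries of a treatment had the same value, the SE of 1.91 percentage points rests on the scatter of other windows alone. Both aphidicolin libraries of the first set covered 98.4% to 100% of each, and both untreated ones 0%.

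Among the 15 windows with the largest fall, 7 formed the run chr13:91500001-92200000. There both untreated lists covered 97.8% to 100% of each window and both aphidicolin lists 0% (limma adjusted p = 0.00701). These 7 met the filter through the untreated lists alone, so the same limit holds for their p-value. The run is a stretch of the chromosome 13 region in which aphidicolin replicate 3 had no island either. MacroH2A1.2 covered 86.8% to 100% of each of the 7 windows in all 4 of its libraries. The others were chr5:29200001-29300000, chr1:188900001-189100000, chr12:74400001-74500000, chr7:79400001-79500000, chr21:10400001-10600000 and chr21:11000001-11100000. In those 8 windows the untreated lists covered 75% to 95.6% and the aphidicolin lists 0% to 9.6%, at adjusted p of 0.0144 to 0.0359 in limma. The ranking used the same difference here too, so these p-values are no separate support for the falls. The windows starting at chr5:29200001, chr1:189000001, chr12:74400001 and chr21:11000001 met the filter through the untreated lists alone. At chr21:11000001-11100000 the first set went against the fall, with 100% in both of its aphidicolin libraries and 85.4% and 0% in its untreated ones.

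All 30 named windows kept their calls on the arcsine scale, at equal covered length, with islands of at least 2 kb, and with windows touched by at least 1 library. Without either aphidicolin library only the 15 falls could be tested. The 15 rises could not, since only 1 library with islands there was then left. edgeR and DESeq2 on island reads each called 26 of the 30, and limma with a replicate block called 0 (adjusted p = 0.207 for each). None of those tested was called without aphidicolin replicate 1 or without either untreated replicate.

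Most of the strongly changed stretches were a single window wide. With at least 50% coverage in both lists of one treatment and at most 5% in both of the other, 83 gained runs held 110 windows on 17 chromosomes, and 52 lost runs held 76 windows on 10 chromosomes. Of these runs 70 gained and 38 lost ones were a single window. The longest gained run was chr22:22900001-23700000 with 8 windows, covered to 94.3% and 93.9% after aphidicolin and 0% without it. At chr16:85700001-86100000 coverage was 88.1% and 72.5% after aphidicolin and 0% in both untreated lists, with reads per kb of 1.04 and 0.924 times the list mean. At chr1:114500001-114900000 it was 84.8% and 55.4% against 0.75% and 2.05%. The gained run on chromosome 16 was thus broad at ordinary density, unlike those on chromosome 22.

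The longest lost run was chr13:91500001-92200000 with 7 windows, described above. At chr5:29000001-29400000 the untreated lists covered 72.6% and 78.2%, and the aphidicolin lists 0% and 0.4%. At chr1:188800001-189100000 they covered 82.0% and 80.3%, and the aphidicolin lists 0% and 2.27%. Chromosome 7 held 35 of the 76 lost windows, including chr7:119800001-120100000 at 70.3% and 70.1% against 0% and 3.13%, and also 13 of the 110 gained windows. The other 9 of the 10 longest lost runs had reads per kb below the list mean in both untreated lists, at 0.786 to 0.979 times it.

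Most of the longest single islands lay in these regions of chromosomes 13 and 22. The longest island of aphidicolin replicate 1, chr22:22901201-23478600, was 577 kb long with 200 reads per kb, and 99.8% of it lay inside islands of replicate 3 and none in the untreated lists. The second longest, chr9:133605201-134152000, was 547 kb long with 216 reads per kb and had no base inside replicate 3. Both aphidicolin libraries of the first set covered 99.7% of it, and the untreated libraries of both sets covered 0%. The fourth longest, chr22:21872601-22237600, was 365 kb long and likewise had no base inside replicate 3, while the first set covered 99.5% and 99.6% of it after aphidicolin. The longest island of replicate 3 was chr22:22901801-23412400, and the next was chr13:90438601-90862800, 424 kb long, which lay wholly inside both untreated lists and had no base in replicate 1. The longest islands of untreated replicates 1 and 3, 682 kb and 1135 kb long, were on chromosome 13 too.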

How the data were processed

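ChIP-seq for γH2AX was compared in 2 aphidicolin and 2 untreated K562 libraries, grouped by their titles and treatment labels. Members, lists and tests were chosen with earlier results of these data known. The authors deposited 1 list per library, with unscaled counts of reads in each island. Bowtie2 2.1.0, SICER 1.1, deepTools and hg19 are named per the submitters' processing notes, without a role. The names that the authors gave the lists carry the caller's settings: window 200 bp, gap 600 bp, FDR 0.01. Chromatin was fragmented with micrococcal nuclease, per the labels' protocols. A list with more sequenced reads can pass the caller at weaker places, and sequenced depth is unknown here. Since a list holds nothing outside its islands, covered length was the measure.

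Every island edge lay on the 200 bp grid (0 off it). Chromosome Y was left out (11 to 32 islands a list). Limma 3.58.1 was fitted without a replicate block to the percent of 100-kb windows covered in at least 2 of the 4 libraries, and to log2(percent + 0.1) of chromosomes relative to the list, with Benjamini-Hochberg adjustment. Totals had exact two-sided permutation tests. For named windows, each direction's 15 largest mean differences were taken from windows that passed adjusted p 0.05 without overlap between treatments. The named islands come from the 5 longest of each list and its 5 densest of at least 2 kb, by reads per kb. Domains and read-dense segments were chosen by value and carry no test. edgeR 4.0.16 (quasi-likelihood, TMM) and DESeq2 1.42.0 on island reads shared out to windows and rounded, an arcsine scale, 1-Mb windows, equal covered length, islands of at least 2 kb, a replicate block and leaving out each library were alternatives. The limma and count fits were tested on simulated data. The reference tables at hand are of GRCh38.p14, so islands were not placed on genes and no sequence was read; coordinates were not converted.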

Additional observations from a re-analysis of the deposited data

How the results depend on the processing

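The log2 ratio of covered length was 0.78 and kept its sign under every alternative except 1, ranging from -0.018 (without aphidicolin replicate 1) to 1.58 (without aphidicolin replicate 3). Lists cut to equal covered length give no value, since the ratio is then fixed. Windows higher and lower, 77 and 327, became 1532 and 2144 on an arcsine scale, 765 and 1109 at equal covered length, 1 and 33 in windows of 1 Mb, 3767 and 2483 with edgeR, and 3810 and 2543 with DESeq2. Leaving out 1 library gave 0 to 653 higher and 0 to 472 lower, with 261 to 900 and 117 to 964 at an unadjusted p under 0.05 in limma. Chromosomes higher and lower, 10 and 7, became 6 and 0 on the absolute scale, where chromosome 6 turned to 0.36, and 4 were lower with a pseudocount of 1 percentage point. Leaving out 1 library gave 7 to 9 higher and 1 to 7 lower. With the replicate number as a replicate block the log2 ratio of covered length was 0.78 (3.46-fold for number 1 and 0.854-fold for number 3), the windows called by limma 0 and 0 (668 and 886 at an unadjusted p under 0.05) and the chromosomes called 7 and 2. The labels do not pair the libraries, and deviations of same-numbered libraries had a correlation of 0.15. Shared bases of the aphidicolin pair were 27.2% of either list at equal covered length, 21.3% with islands of at least 2 kb and 21.7% in the upper 50% by density, and of the untreated pair 29.7%, 27.7% and 32.4%. Asking for 50% of an island's length lowered the shared islands of aphidicolin replicates 1 and 3 from 33.3% to 16.7% and from 75.9% to 70.7%, and of untreated replicates 1 and 3 from 58.2% to 46.5% and from 41.0% to 32.0%. In alternatives chosen after seeing the data, gained bases were 25.4 Mb at equal covered length and 50.0 to 212 Mb without 1 library, and lost bases 27.0 to 73.9 Mb without 1 library. The causes of these changes were not tested, beyond the fewer libraries or shorter lists that each alternative leaves.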

Other observations

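Islands of very high density were more numerous in the untreated lists. Islands with at least 10 times the list mean in reads per kb numbered 14 in untreated replicate 1 and 7 in untreated replicate 3, against 0 in aphidicolin replicate 1 and 3 in aphidicolin replicate 3. The highest stood at 62.5 and 63.7 times the mean in the untreated lists, and at 8.96 and 33.1 times in aphidicolin replicates 1 and 3. All 7 of untreated replicate 3 overlapped islands of untreated replicate 1, and 0 overlapped aphidicolin replicate 1. Those at chr18:18510801-18520400 had 1665 and 2006 reads per kb in untreated replicates 1 and 3, and lay outside both aphidicolin lists. They also had 0% in all γH2AX libraries of the first title set, untreated ones included. Of the 5 densest islands of each untreated list, only those starting at chr8:43092601 were covered in the first set. Its untreated libraries covered 92.6% or more of these, and its aphidicolin libraries 0%. Mappability and repeats at the dense islands were not looked at, so their part in the high densities was not tested.

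The ends of chromosomes were covered more after aphidicolin. In the last 2 Mb of the chromosomes the islands covered 14.0% and 5.75% in aphidicolin replicates 1 and 3, which is 1.95 and 2.45 times the rest. In untreated replicates 1 and 3 they covered 2.07% and 2.18%, which is 0.983 and 0.771 times the rest. Both treated lists thus stood above both untreated lists in this ratio, by a measure that was looked at without a test.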
